A study of Mus musculus with 8 samples.

Results

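The 38 Hox genes described here are members of the 4 mouse Hox clusters, taken by name from a fixed list: 10 genes of Hoxa on chromosome 6, 10 of Hoxb on chromosome 11, 9 of Hoxc on chromosome 15 and 9 of Hoxd on chromosome 2. They were 38 of 21896 protein-coding genes in the RefSeq gene table for GRCm38.p6, the assembly behind the mm10 build of the peak lists. The data were CUT&RUN peaks, that is, places where an antibody-guided nuclease cut chromatin often enough to pass the authors' threshold. The cells were mouse embryonic stem cells (mESCs) of strain C57BL/6, all grown with LIF, the GSK3 inhibitor CHIR99021 and the MEK inhibitor PD0325901. An antibody against METTL14 was used in 2 libraries labelled Mettl3 Control and 2 labelled Mettl3 CKO, and an antibody against METTL3 in 2 libraries labelled Mettl14 Control and 2 labelled Mettl14 CKO. The labels leave CKO unexplained and are silent on how, or from how many clones, the cells were derived. Nor do they state that replicate libraries are separate cultures, and the spread between replicates may therefore be technical. Expression was not measured, so the cell type could not be checked against its markers. Sequencing depth was not given in the sources used here.

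METTL3 and METTL14 are the core subunits of the enzyme that writes N6-methyladenosine on RNA, METTL3 as the catalytic subunit and METTL14 as the partner that helps bind RNA. Hox genes encode homeodomain transcription factors that give cells their position along the head-to-tail axis. Within a cluster the genes stand in the order in which they are used: low-numbered paralogues act early and anteriorly, high-numbered paralogues late and posteriorly. In undifferentiated ESCs the clusters are a textbook case of Polycomb repression, held silent under H3K27 methylation until differentiation. The question addressed by the groups is where METTL14 is found on these genes, gene by gene, and what becomes of its peaks in cells labelled Mettl3 CKO.

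Promoters are shown first, as examples of the sequence at starts with and without METTL14 peaks. The RefSeq promoter table for GRCm38.p6 (mm10) matched 22 of the 38 genes with 24 transcription starts. It covers all 9 Hoxd genes and 9 of 10 Hoxa genes, but only 3 of 10 Hoxb and 1 of 9 Hoxc genes. In 3 of these promoters, all of them Hoxd promoters, the window from 250 bases before to 50 after the start was overlapped by a METTL14 peak in all 4 libraries. They are printed below with the promoters of 2 genes that had no peak in any library. These genes were picked for having or lacking peaks, and many genes with peaks in all 4 libraries, such as Hoxa3, Hoxa5, Hoxa7 and Hoxa9, had none overlapping the promoter window. Each sequence holds the 250 bases before the start, 5′ to 3′ on the gene's own strand, with every CG dinucleotide in capitals. The windows are chr2:74682073-74682322 (+ strand) for the second start of Hoxd11, chr2:74691641-74691890 (+) for Hoxd10, chr2:74697513-74697762 (+) for Hoxd9, chr6:52164832-52165081 (− strand) for Hoxa2 and chr2:74762730-74762979 (+) for Hoxd1.
Hoxd11: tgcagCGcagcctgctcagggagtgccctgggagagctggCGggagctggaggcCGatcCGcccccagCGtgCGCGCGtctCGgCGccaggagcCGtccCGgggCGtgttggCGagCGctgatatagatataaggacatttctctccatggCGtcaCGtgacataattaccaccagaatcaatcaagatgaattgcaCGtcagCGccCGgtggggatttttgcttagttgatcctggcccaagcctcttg
Hoxd10: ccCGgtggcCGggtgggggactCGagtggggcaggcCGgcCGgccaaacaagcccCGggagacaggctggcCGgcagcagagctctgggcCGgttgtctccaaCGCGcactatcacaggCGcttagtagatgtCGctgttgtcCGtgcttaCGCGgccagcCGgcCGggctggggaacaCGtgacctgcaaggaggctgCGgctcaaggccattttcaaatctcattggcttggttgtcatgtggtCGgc
Hoxd9: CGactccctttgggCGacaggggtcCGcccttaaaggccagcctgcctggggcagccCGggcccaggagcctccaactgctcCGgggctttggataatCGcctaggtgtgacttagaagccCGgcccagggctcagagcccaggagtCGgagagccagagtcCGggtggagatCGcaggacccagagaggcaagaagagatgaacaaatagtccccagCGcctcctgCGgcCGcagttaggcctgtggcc
Hoxa2: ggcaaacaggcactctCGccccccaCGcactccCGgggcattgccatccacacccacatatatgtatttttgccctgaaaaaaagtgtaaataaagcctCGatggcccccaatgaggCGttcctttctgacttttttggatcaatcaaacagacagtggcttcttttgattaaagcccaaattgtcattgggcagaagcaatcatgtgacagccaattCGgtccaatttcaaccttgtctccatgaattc
Hoxd1: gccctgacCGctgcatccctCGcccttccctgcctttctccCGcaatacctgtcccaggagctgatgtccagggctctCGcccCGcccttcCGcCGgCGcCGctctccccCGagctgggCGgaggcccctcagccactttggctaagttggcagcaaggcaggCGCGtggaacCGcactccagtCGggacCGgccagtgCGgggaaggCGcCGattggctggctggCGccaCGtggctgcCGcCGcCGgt

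The printed promoters differed widely in CG dinucleotides. The 3 overlapped promoters had 20, 20 and 13 in the printed stretch for Hoxd11, Hoxd10 and Hoxd9, at a GC content of 60.4%, 65.6% and 65.2%. Hoxd1, with no peak, had 24 and a GC content of 71.6%, and Hoxa2, also with none, had 6 and 46.4%. At Hoxd10 the peaks stood at almost the same place in every library, from 74691557 to 74691705 in control 1 and from 74691568 to 74691716 in the other three. At Hoxd9 they covered the start itself, from 74697683 in control 1, 74697753 in control 2 and CKO 1, and 74697762 in CKO 2, each 149 bp long. At Hoxd11 the peaks of the 2 controls and CKO 1 began at 74682234, 74682234 and 74682233, whereas that of CKO 2 ended at 74682181 without touching the others.

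METTL14 peaks were found at most Hox genes in every METTL14 library. A peak was assigned to the nearest protein-coding gene when it lay inside it or within 2 kb. By that rule 25 and 29 of the 38 genes had a peak in control 1 and control 2, and 27 and 25 in CKO 1 and CKO 2. As a share this was 65.8%, 76.3%, 71.1% and 65.8% of Hox genes, where the same libraries marked 8.22%, 9.39%, 10.9% and 4.03% of all protein-coding genes. The Hox genes held 50 peaks in control 1, 68 in control 2, 57 in CKO 1 and 43 in CKO 2. Set against list lengths of 3129, 3546, 3922 and 1439 peaks, that was 1.60% (95% Wilson interval 1.21% to 2.10%), 1.92% (1.52% to 2.42%), 1.45% (1.12% to 1.88%) and 2.99% (2.23% to 4.00%) of all peaks. These intervals cover counting error only. CKO 2 had the shortest list and the largest Hox share, and its interval did not overlap that of CKO 1.

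More than 1 peak per gene was common. In control 1, control 2, CKO 1 and CKO 2, 9, 19, 16 and 13 Hox genes had at least 2 peaks, or 23.7%, 50%, 42.1% and 34.2% of them. Over all protein-coding genes the shares were 1.02%, 1.31%, 1.49% and 0.448%. The Hox gene with the most peaks was Hoxb3 with 7 in control 1 and Hoxa3 with 8, 7 and 4 in the other libraries. Only 3, 3, 2 and 5 genes outside the Hox list had more peaks than that in the same libraries.

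Of the 38 genes, 19 had a peak in all 4 METTL14 libraries, which is 50%, where 1.99% of all protein-coding genes did. A further 6 had one in 3 libraries, 4 in 2, 4 in 1 and 5 in none. Both control libraries marked 21 Hox genes (55.3%, against 4.32% of all genes), and both CKO libraries 23 (60.5%, against 3.15%). The heat map of counts shows the gene-by-gene pattern.

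**Figure D1:**
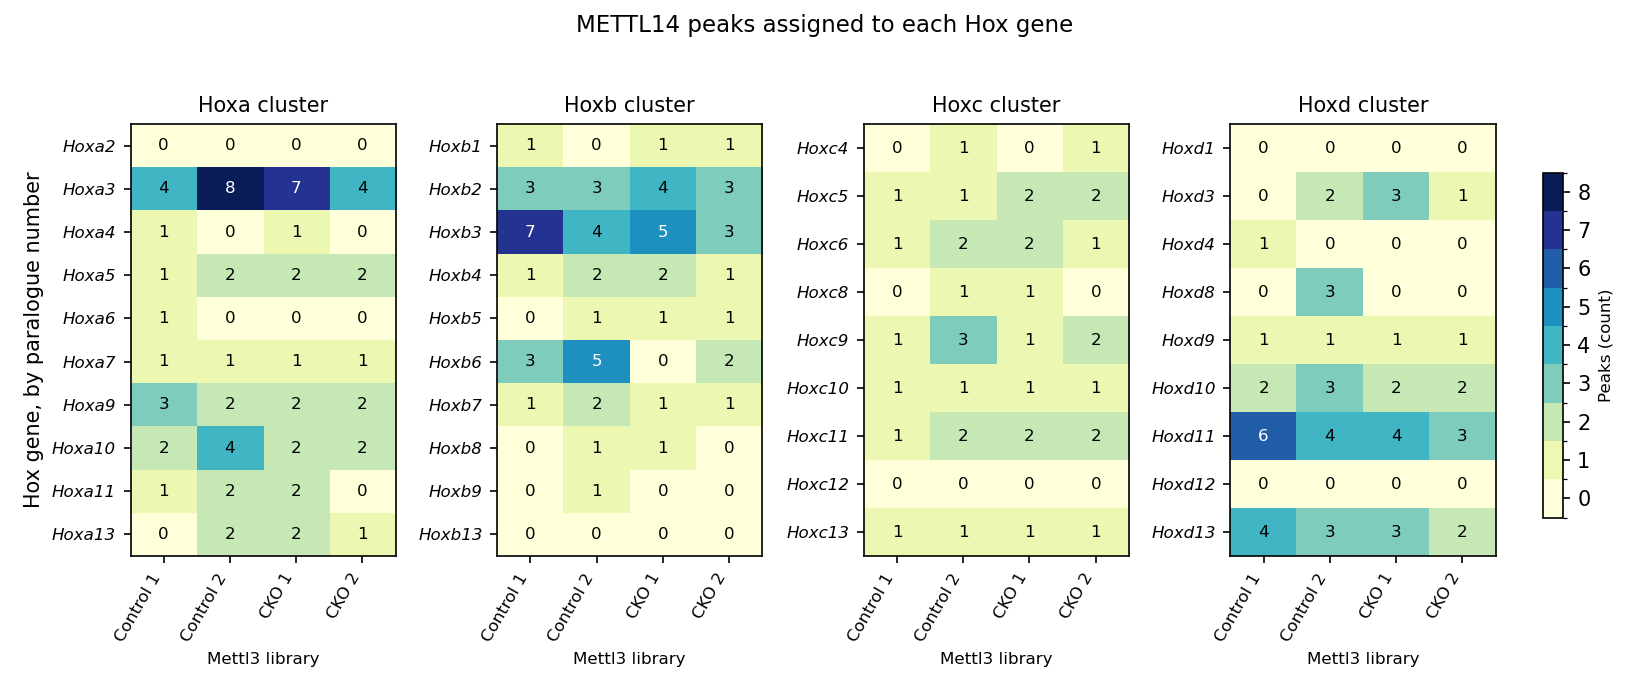
METTL14 peaks assigned to each of 38 Hox genes (rows, by paralogue number) in the 2 Mettl3 Control and 2 Mettl3 CKO libraries (columns). The number in each cell is the peak count, from 0 to 8. Hoxa3, Hoxb2, Hoxb3, Hoxd11 and Hoxd13 have the most peaks summed over the libraries, and Hoxa2, Hoxb13, Hoxc12, Hoxd1 and Hoxd12 are at 0 in each.

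Among the anterior genes (paralogue groups 1 to 4), 4 of 11 had a peak in all 4 libraries. Hoxa3, which is needed for the thymus and parathyroid, had 4 and 8 peaks in the control libraries, then 7 and 4 in CKO. Hoxb3 had 7 and 4, then 5 and 3. Both are annotated as long genes (44009 and 40830 bp) that span some of their neighbours, so their counts have to be read per length. Per 10 kb for which the gene is the nearest one, Hoxa3 had 1.49 ± 0.534 peaks and Hoxb3 1.19 ± 0.429 (mean ± SD over the 4 METTL14 libraries). Hoxb2, a hindbrain gene, had 3, 3, 4 and 3 peaks in only 6.24 kb, or 5.21 ± 0.801 per 10 kb. Hoxb4, known for expanding blood stem cells, had 1, 2, 2 and 1, or 4.45 ± 1.71 per 10 kb. Per length, the short genes Hoxb2 and Hoxb4 thus stood above the long ones. Hoxb4 lies inside the annotated extent of Hoxb3, so its length includes no flanks, which raises its density beside genes that have them.

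The remaining anterior genes were marked less regularly. Hoxb1, which specifies the fourth hindbrain segment, had 1, 0, 1 and 1 peaks in control 1, control 2, CKO 1 and CKO 2. Hoxd3 had 0, 2, 3 and 1, and as the third gene with a long annotation (36279 bp) it reached just 0.453 ± 0.390 per 10 kb. Hoxa4 had a peak in control 1 and CKO 1, Hoxc4 in control 2 and CKO 2, and Hoxd4 in control 1 alone. Hoxa2 and Hoxd1 had none.

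Of the central genes (paralogue groups 5 to 8), 5 of 11 had a peak in all 4 libraries. Hoxa5, needed for the respiratory tract, had 1, 2, 2 and 2 peaks. Its 6.16 ± 1.76 per 10 kb, over only 2.84 kb, was the highest mean density of the 38 genes. Hoxa5 lies inside the annotated extent of Hoxa3, so its length includes no flanks. Genes outside such an overlap have up to 2 kb on each side in theirs. Hoxa7 had 1 in each library. Hoxb7 had 1, 2, 1 and 1, Hoxc5 1, 1, 2 and 2, and Hoxc6 1, 2, 2 and 1. Every central gene had a peak in at least 1 library. Hoxb6 had 3 and 5 in the controls and 0 and 2 in the CKO libraries. Hoxb5 lacked a peak in control 1 only, Hoxb8 and Hoxc8 had 1 each in control 2 and CKO 1, Hoxa6 had 1 in control 1 alone, and the 3 peaks of Hoxd8 all came from control 2.

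The posterior genes (paralogue groups 9 to 13) had the most members marked throughout, 10 of 16. Hoxd11, which with its paralogues shapes the forearm and kidney, had 6 and 4 peaks in the control libraries, then 4 and 3 in CKO, or 5.07 ± 1.50 per 10 kb. Hoxd13, the gene of digit formation, had 4, 3, 3 and 2, or 4.23 ± 1.15 per 10 kb. Hoxd10, used in the lumbar spinal cord and hindlimb, had 2, 3, 2 and 2, and Hoxd9 had 1 in each. In Hoxa, Hoxa9, a regulator of blood progenitors, had 3, 2, 2 and 2 and Hoxa10, which patterns the uterus, 2, 4, 2 and 2. In Hoxc, Hoxc9 had 1, 3, 1 and 2, Hoxc11 1, 2, 2 and 2, and Hoxc10 and Hoxc13, the latter a hair follicle gene, 1 in each library.

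Beside these posterior genes stood others with few or no peaks. Hoxa11 had 1, 2, 2 and 0 and Hoxa13 0, 2, 2 and 1. Hoxb9 had a single peak, in control 2. Hoxb13, Hoxc12 and Hoxd12 had none in any library. By paralogue number, all 3 genes of group 10 had a peak in all 4 libraries, and neither gene of group 12 had one in any.

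Of the 5 genes with no peak, 1 had peaks close by that were assigned to its neighbours. When a peak was counted for every gene within 2 kb, Hoxd12 gained 3, 2, 2 and 2 peaks that otherwise went to Hoxd11 and Hoxd13. Hoxa2, Hoxb13, Hoxc12 and Hoxd1 stayed at 0 in each METTL14 library. Under the same counting Hoxa6, which lies inside the annotated extent of Hoxa3, had 2 peaks in each library and Hoxa4, also inside it, had 2, 2, 2 and 1. The number of marked Hox genes then was 28, 32, 30 and 30.

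Taken over all clusters, posterior genes carried more METTL14 peaks per length than anterior ones in each of the 4 libraries, but the clusters differed and without Hoxd the order turned in 2 libraries. The density was 1.84 ± 0.322 peaks per 10 kb for posterior, 1.57 ± 0.586 for central and 1.10 ± 0.222 for anterior genes (mean ± SD, 4 libraries). Posterior exceeded anterior density by 0.738 and 1.09 in the controls and by 0.443 and 0.661 in the CKO libraries. No p-value is given, because the genes were chosen with results of these data known. The share of genes with a peak differed less clearly, at 73.4% ± 5.98 for posterior, 72.7% ± 12.9 for central and 61.4% ± 4.55 for anterior genes. Its posterior-minus-anterior difference was 5.11, 26.7, 11.4 and 5.11 percentage points, a mean of 12.1 ± 10.2, and control 2 gave the highest value. Without control 2 that mean was 7.20. Central and posterior densities were not separated: posterior was higher in 3 libraries, and lower in control 2, where central genes reached 2.43 per 10 kb.

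By cluster, the posterior Hoxd genes had 3.61, 3.06, 2.78 and 2.22 peaks per 10 kb in control 1, control 2, CKO 1 and CKO 2, and the anterior Hoxd genes 0.215, 0.431, 0.646 and 0.215. Posterior density was also the higher in Hoxa, by 0.662 to 1.32, and in Hoxc, by 0.885 to 1.13, where Hoxc4 is the only anterior gene. In Hoxb the order was turned round: its posterior genes, Hoxb9 and Hoxb13, had 0, 1, 0 and 0 peaks, and Hoxb1 to Hoxb4 had 12, 9, 12 and 8. Without the Hoxd genes posterior density was 1.09 in control 1, 1.96 in control 2 and 1.41 in CKO 1, and anterior density 1.38, 1.46 and 1.62. Posterior was thus lower in control 1 and CKO 1, higher by 0.499 in control 2 and by 0.143 in CKO 2, and the mean difference was 0.0357 per 10 kb. The difference in the share of genes was then −1.42 percentage points. The split by cluster was made after the values were seen.

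**Figure D2:**
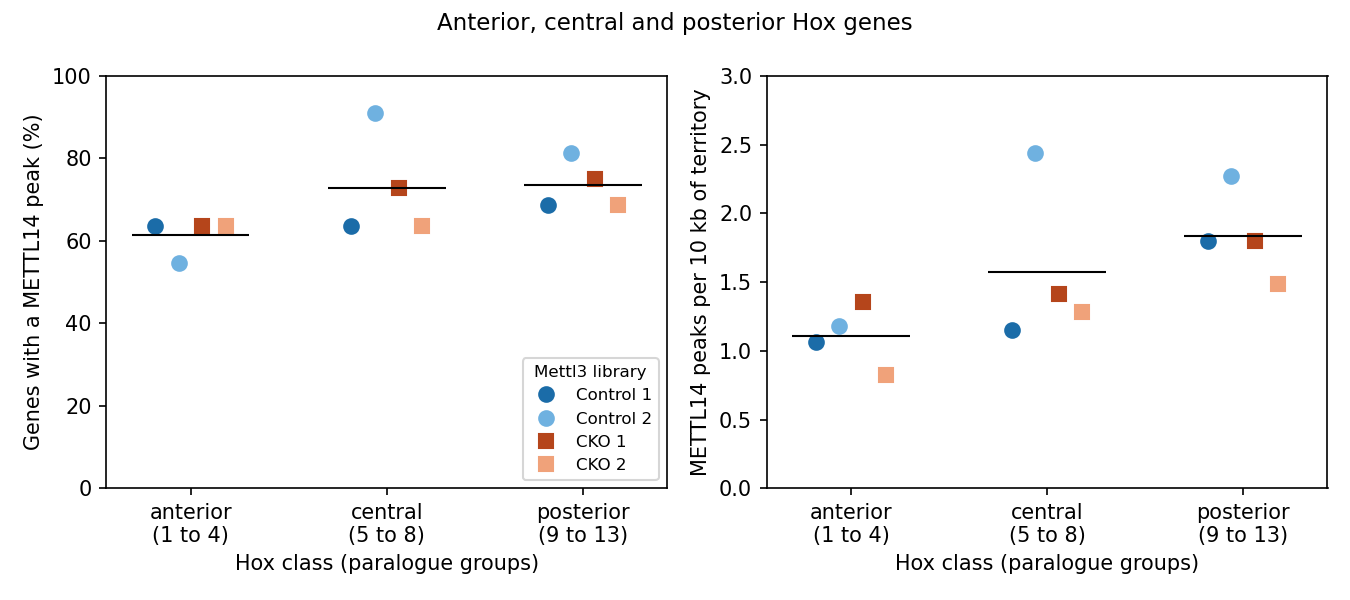
Left, the percent of anterior (11), central (11) and posterior (16) Hox genes with a METTL14 peak. Right, METTL14 peaks per 10 kb of the sequence assigned to those genes. Each point is 1 library (circles, Mettl3 Control; squares, Mettl3 CKO) and each line the mean of the 4 libraries. For density the posterior points run from 1.49 to 2.27 and the anterior points from 0.825 to 1.36.

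The long paralogue group 3 genes supplied 11, 14, 15 and 8 of the 18, 20, 23 and 14 anterior peaks. Without them the density difference between posterior and anterior genes was 0.596, 1.24, 0.424 and 0.455 per 10 kb in control 1, control 2, CKO 1 and CKO 2, a mean of 0.678 in place of 0.733, which is within the spread between libraries. The difference in the share of genes rose from 12.1 to 23.4 percentage points, since only 62.5%, 37.5%, 50% and 50% of the other 8 anterior genes had a peak. This comparison was added after the values were seen.

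All 4 clusters carried METTL14 peaks in each library. Hoxa had 1.80 ± 0.457 peaks per 10 kb, Hoxb 1.56 ± 0.290, Hoxd 1.45 ± 0.328 and Hoxc 1.01 ± 0.266 (mean ± SD, 4 libraries). By share of genes the order changed: Hoxc had 77.8% ± 9.07 of its genes marked, Hoxa 72.5% ± 9.57, Hoxb 70% ± 8.16 and Hoxd 58.3% ± 5.56. Hoxc therefore had many marked genes with few peaks each. Hoxd had peaks gathered on few genes, since Hoxd9, Hoxd10, Hoxd11 and Hoxd13 carried most of them. From control to CKO, mean density went from 1.90 to 1.69 in Hoxa, 1.76 to 1.36 in Hoxb, 0.953 to 1.06 in Hoxc and 1.67 to 1.23 in Hoxd. Control and CKO libraries overlapped in density in Hoxa and Hoxc. In Hoxb (1.61 and 1.91 against 1.51 and 1.21) and in Hoxd (1.56 and 1.78 against 1.45 and 1.00) both CKO libraries lay below both controls, which was not tested. In Hoxb this rested on Hoxb6: without it the counts were 13 and 14 for control and 15 and 10 for CKO, which overlap.

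**Figure D3:**
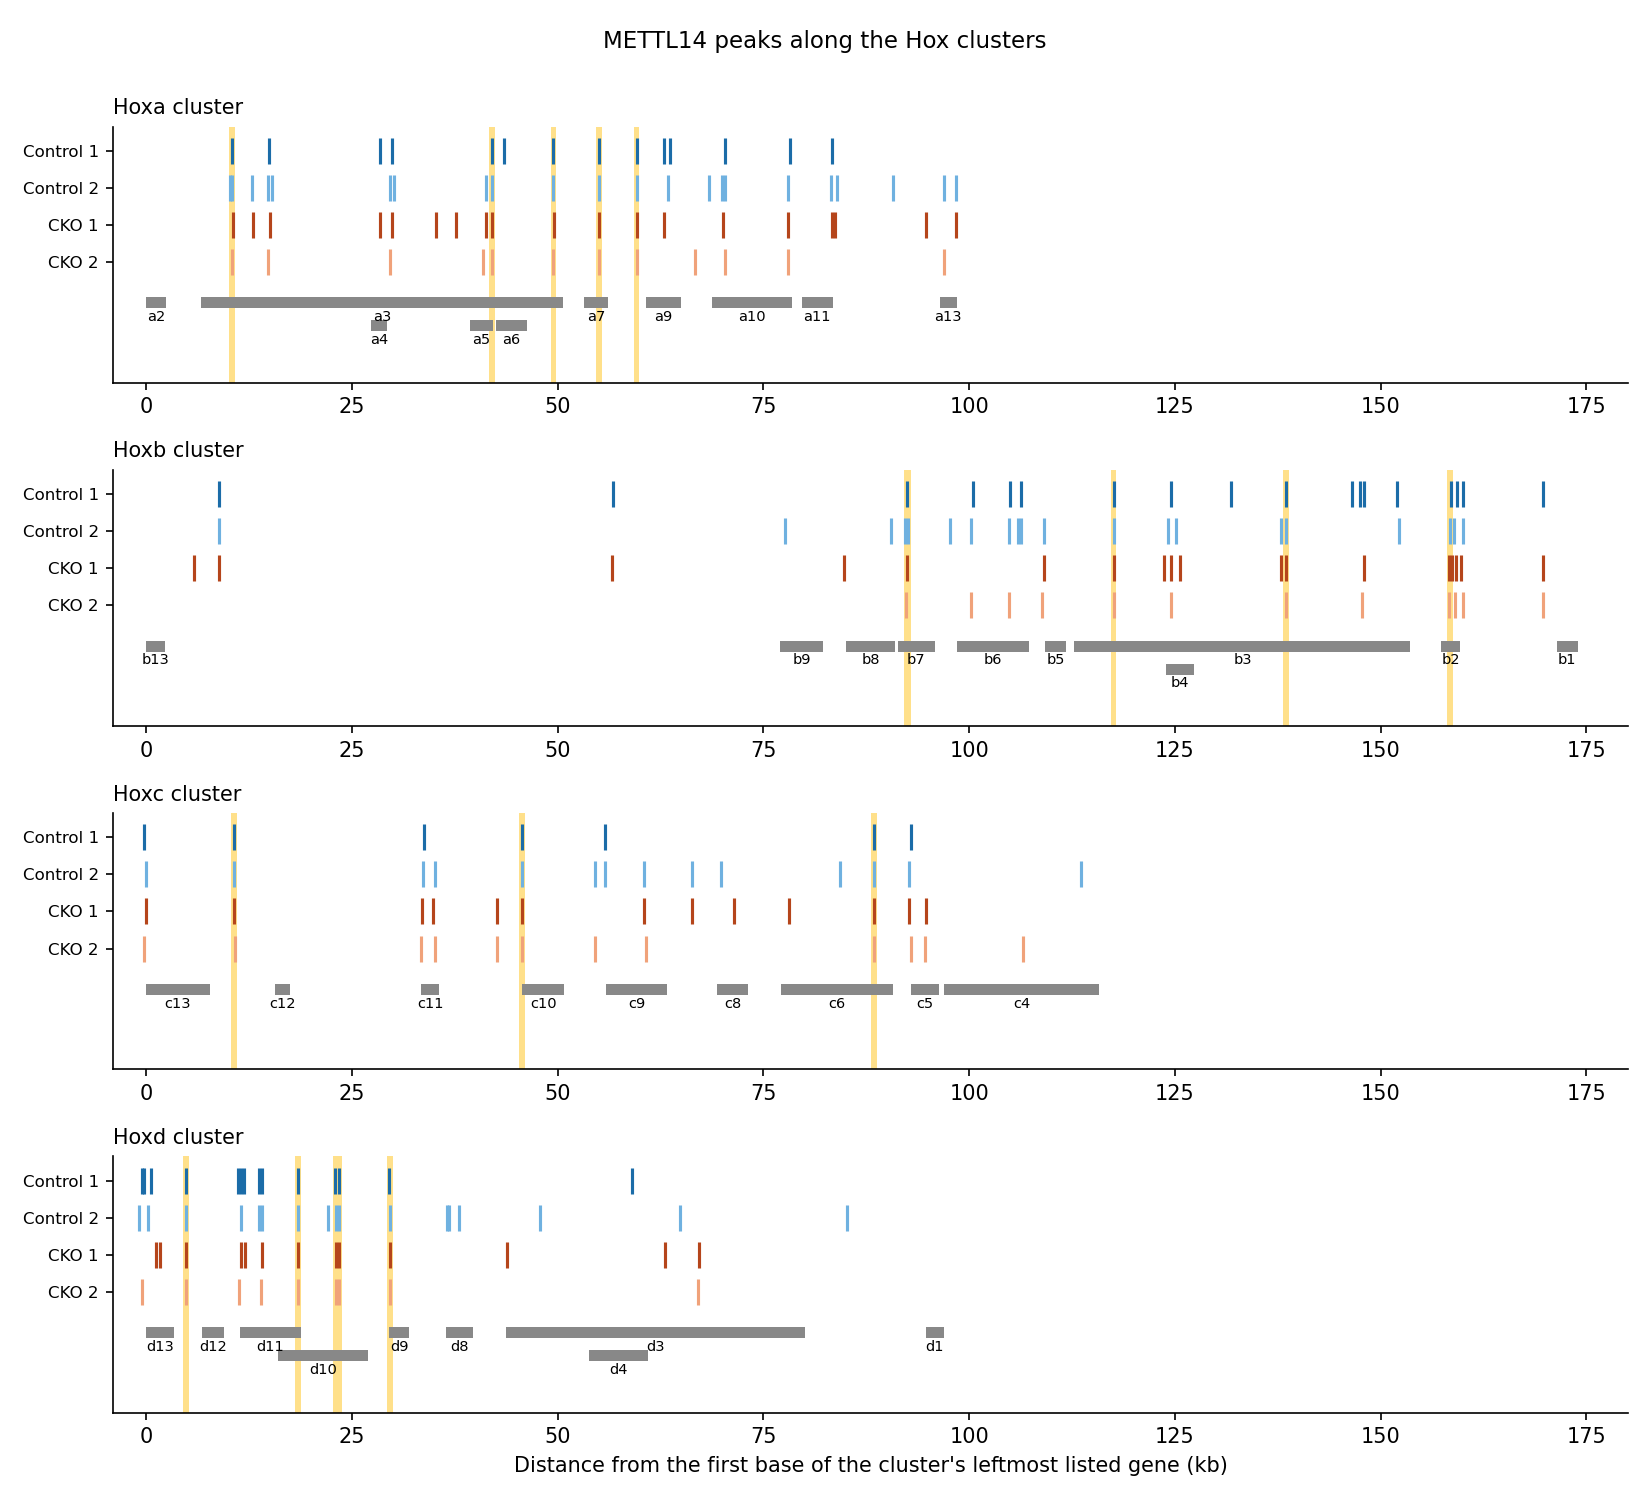
METTL14 peaks (ticks, 1 row per library) along the Hoxa, Hoxb, Hoxc and Hoxd clusters, by distance in kb from the first base of the leftmost listed gene. Grey bars are the listed genes, and yellow bands the 17 regions with a peak in all 4 libraries. In Hoxd the bands run from Hoxd13 to Hoxd9, and the long stretch between Hoxb13 and Hoxb9 has 3 peaks or fewer in any library.

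Peaks also fell between the genes, at a lower density. The 28 gaps between neighbouring listed genes cover 211 kb and the genes 274 kb. Counted by peak centre, there were 1.46, 2.01, 1.68 and 1.17 peaks per 10 kb inside the genes in control 1, control 2, CKO 1 and CKO 2. The gaps had 0.473, 0.757, 0.757 and 0.521, lower in each of the 4 libraries. Of the gaps, 8, 14, 11 and 10 held a peak. The gaps between Hoxa7 and Hoxa9, Hoxc13 and Hoxc12, Hoxd13 and Hoxd12, and Hoxb2 and Hoxb1 held at least 1 in every METTL14 library. The longest gap, 74.7 kb between Hoxb13 and Hoxb9, held 2, 1, 3 and 0.

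Overlapping peaks of the 4 libraries merged into 128 regions in the clusters, of which 17 had a peak from every library, 11 from 3, 33 from 2 and 67 from 1. The 67 regions of 1 library lay a median of 400 bp from a peak of another library. Of these, 36 lay within 500 bp of such a peak, while 19 lay more than 2000 bp from any. How many would lie that close from peak density alone was not worked out. The 17 shared regions fell in all 4 clusters. In Hoxa they were chr6:52172760-52172972 inside Hoxa3, chr6:52204326-52204498 in Hoxa5, chr6:52211798-52211987 inside the extent of Hoxa3 between Hoxa6 and Hoxa7, chr6:52217360-52217509 in Hoxa7, and chr6:52221918-52222073, which lay 1024 bp outside Hoxa9 in the gap toward Hoxa7. In Hoxb they were chr11:96286606-96286957 in Hoxb7, chr11:96311799-96311964 and chr11:96332751-96332921 in Hoxb3, and chr11:96352592-96352893 in Hoxb2.

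Hoxc had 3 shared regions and Hoxd 5. In Hoxc, chr15:102966716-102966877 overlapped the boundary of Hoxc10, chr15:103009502-103009681 lay in Hoxc6, and chr15:102931721-102931923 stood between Hoxc13 and Hoxc12 with no protein-coding gene within 2 kb. In Hoxd, chr2:74672966-74673143 lay 1363 bp outside Hoxd13, chr2:74686569-74686739 where the annotated extents of Hoxd11 and Hoxd10 overlap, chr2:74691132-74691331 and chr2:74691557-74691716 in Hoxd10, and chr2:74697683-74697910 at Hoxd9. Both Hoxd10 regions were upstream of its tabulated start, by centre, at −659.5 and −254.5 bp, and the Hoxd9 region was centred 33.5 bp downstream of its start. These 3 Hoxd regions and the region 175 bp downstream of the Hoxa5 start were the shared regions within 1000 bp of their own gene's start, among the 10 with a tabulated start. Exons and introns were not distinguished here, since the gene table gives gene extents only.

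Over all 128 regions, 72 were assigned to a gene with a tabulated start. Their centres lay a median of 1528 bp from it, 21 within 500 bp, 44 within 2000 bp and 17 beyond 5000 bp. Of the 72, 55 were downstream of the start and 17 upstream. The assignment admits a region upstream only up to 2 kb outside the gene, but downstream along the whole gene. These counts therefore say nothing about a preferred side. Of the 128 regions, 99 overlapped one of the listed genes, and 96 had their centre inside one.

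The number of Hox peaks in Mettl3 Control and Mettl3 CKO libraries overlapped. The controls had 59 ± 12.7 Hox peaks and the CKO libraries 50 ± 9.90 (SD, n = 2 each), a mean log2 difference of −0.24. In genes marked, the groups had 27 ± 2.83 and 26 ± 1.41. The mean count per gene was equal in 15 genes, higher in the controls in 15 and higher in CKO in 8. No Hox gene was marked in both controls and no CKO library, or the reverse. All 29 genes marked in any CKO library were among the 33 marked in any control library. Matching counts over all protein-coding genes are not given here, so this overlap is not read as particular to Hox genes.

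Per gene, with 2 libraries against 2, the smallest p that an exact permutation test of the 6 labellings can give is 0.333, so no gene could pass 0.05. Hoxb6, a gene of the lateral plate mesoderm, was the only Hox gene with both controls (3 and 5) above both CKO libraries (0 and 2), at an exact permutation p = 0.333. Among all genes 0.923% showed that pattern, and 1 of 38 is 2.63%. When each peak was counted for every gene within 2 kb, Hoxb6 had 3 and 6 against 1 and 3, which overlap. Hoxc5 was the only Hox gene with both CKO libraries (2 and 2) above both controls (1 and 1), again at an exact permutation p = 0.333, where 0.438% of all genes showed that pattern. In each direction, then, a single Hox gene stood apart.

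Positions were shared across the groups as well. In the controls 26 Hox regions had a peak of both libraries, and 15 of them (57.7%, 95% Wilson interval 38.9% to 74.5%) were overlapped by a region called in both CKO libraries. Of the 22 such CKO regions, 15 (68.2%) were overlapped by a control region of that kind. The interval covers counting error only and treats neighbouring regions of the same libraries as independent. The same share for regions outside the Hox genes is not given here. With peaks up to 500 bp apart joined, an alternative added after seeing the data, 25 of 34 control regions (73.5%) were overlapped. Among the merged regions 4 had peaks of the control pair only and 4 of the CKO pair only, while the other pairs of libraries, each 1 control with 1 CKO, had 3 to 9.

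METTL3 lists held 0 peaks at Hox genes in both Mettl14 Control and both Mettl14 CKO libraries. These lists were short, at 353 and 341 peaks for Mettl14 Control and 242 and 344 for Mettl14 CKO, and 1.4% of all protein-coding genes had a peak in at least 1 of them. At that background 0 of 38 genes is not by itself a difference from other genes. Among the first 353 peaks of each METTL14 list, the length of the longest METTL3 list, there were 39, 44, 39 and 31 Hox peaks in control 1, control 2, CKO 1 and CKO 2. Since Hox peaks stand early in those lists, in an order whose meaning is unknown, these counts do not settle what part list length has in the contrast. Antibody and cell line changed together between the METTL14 and METTL3 libraries, so their parts in this contrast cannot be told apart. Peak width differed too, with 149 bp the commonest width in each METTL14 list. METTL3 peaks were 285 and 277 bp wide for Mettl14 Control and 267 and 245 bp for Mettl14 CKO. What part width has in the contrast was not tested.

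The Hox peaks stood early in the METTL14 lists. Their median place was 7.45% and 7.97% of the way down the control lists, 6.58% down the CKO 1 list and 16.3% down the shorter CKO 2 list. All 50 Hox peaks of control 1 and all 57 of CKO 1 lay before the midpoint of their lists, as did 67 of 68 in control 2 and 40 of 43 in CKO 2. The first Hox peak stood at place 99, 94, 79 and 69. What the order of a list stands for is not given in the sources used here. With every METTL14 list shortened to its first 1439 peaks, the length of the CKO 2 list, 25, 27, 27 and 25 Hox genes kept a peak and the number of Hox peaks was 50, 66, 57 and 43. The Hox share of peaks was then 3.47%, 4.59%, 3.96% and 2.99%, so the large share of CKO 2 in whole lists became the lowest of the 4.

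**Figure D4:**
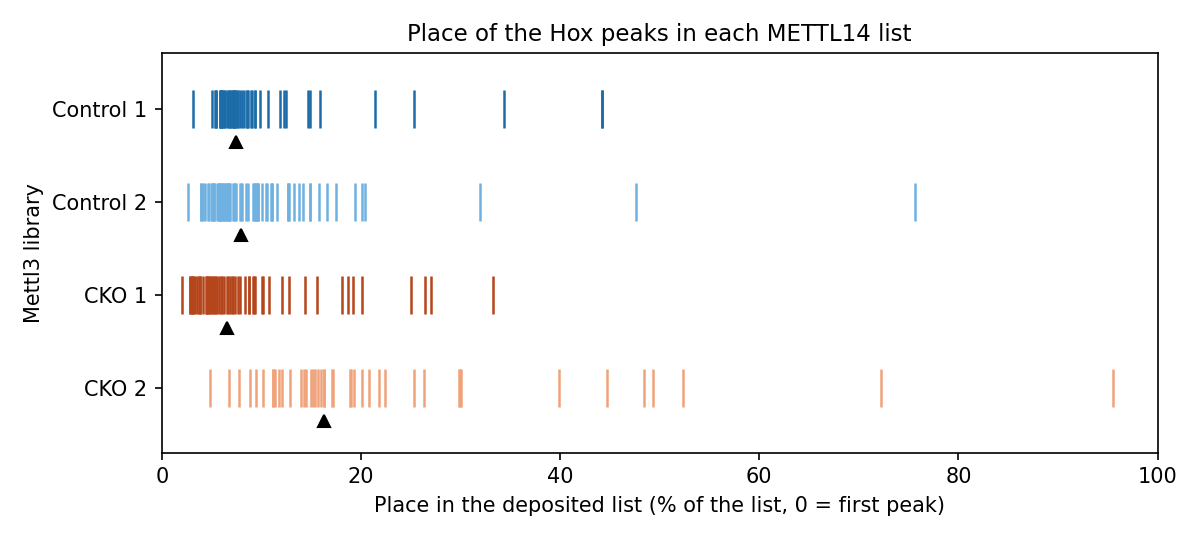
Place of each Hox peak (tick) in the METTL14 list of its library, in percent of the list, where 0 is the first peak. Triangles mark the median of each library, between 6.58% and 16.3%, and most ticks of all 4 libraries lie toward the left end.

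Base composition did not sort the Hox promoters by METTL14 peaks in a simple way. Over the 300-base windows the 24 Hox promoters had a median GC content of 57.7%, and that of all 32851 tabulated promoters was 52.7%. The ratio of observed to expected CG dinucleotides was 0.626 at the median for Hox and 0.384 for all promoters. It was 0.626 in the 12 promoters of genes with a peak in all 4 libraries, 0.787 in the 9 of genes marked in 1 to 3, and 0.589 in the 3 of genes with none. The ranges of these sets overlapped, with lowest values of 0.257, 0.333 and 0.574 and highest values of 1.02, 0.97 and 0.805. Among the 3 with none is Hoxd12, which had a peak within 2 kb of its start in all 4 libraries, assigned to a neighbour. Grouped instead by a peak within 2 kb of the start, the median ratio was 0.594 for a peak in all 4 libraries (12 promoters). It was 0.583 for 1 to 3 libraries (6 promoters) and 0.829 for none (6 promoters).

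Short motifs were searched on both strands in the same windows. CCAAT, the letters of the CCAAT box, was in 15 of 24 Hox promoters (62.5%) and in 37.4% of all promoters. It was in 4 of the 12 promoters of genes marked in all 4 libraries and in 8 of the 9 marked in 1 to 3. It was also in all 3 of the genes with no peak, Hoxd12 among them. Grouped by a peak within 2 kb of the start, CCAAT was in 4 of 12 promoters with a peak in all 4 libraries. It was in 5 of 6 with a peak in 1 to 3 and in 6 of 6 with none. GGGCGG, the letters of the GC box, was in 10 (41.7%, against 35.7% of all). TATAAA was in 4 (16.7%, against 13.6%) and TAATTA, a core that homeodomains bind, in 2 (8.33%, against 5.29%), both of them starts of Hoxd11. None of the 4 motifs contains another. A match is only a run of letters, and none of these differences was tested.

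Noncoding genes lie between and across the Hox genes. Of 22 long noncoding RNA genes in the clusters, 6 had a METTL14 peak inside in all 4 libraries, among them Hoxaas3 (3 in each library), Hoxb5os (3, 6, 1 and 3) and Hoxb3os (2, 3, 2 and 2). All 6 overlap Hox genes, so their peaks can be the same ones counted for those genes, and the peaks do not tell the strands apart. The share over all long noncoding RNA genes is not given here, so 6 of 22 is not read as particular to the clusters. Another 9 had none in any library, among them Hotair, the RNA gene between Hoxc12 and Hoxc11, Hoxaas2 and Mira. The 6 microRNA genes of the clusters, Mir196b, Mir196a-1, Mir196a-2, Mir10a, Mir10b and Mir615, had no peak inside in any METTL14 library. They span at most 110 bp, and in each METTL14 library Mir615 had a peak within 1043 bp.

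Genes that work with the Hox genes were read from a list of 23 cofactors, upstream regulators and related homeobox genes. Of these, 8 and 7 had a METTL14 peak in the controls and 10 and 6 in the CKO libraries, and 4 had one in all 4. The shares over all protein-coding genes are those given above for each library. Of the 9 cofactors, which bind DNA together with Hox proteins, 6 had a peak in at least 1 METTL14 library, 4 in at least 2 and 3 in all 4. Those 3 were Meis1 with 1, 2, 3 and 3 peaks, Meis2 with 4, 3, 2 and 2, and Pbx3 with 1 in each library. Pbx2, Pbx4 and Meis3 had none in any METTL14 library. These genes differ in length, and their counts were not set per length. None of the 9 upstream regulators was marked in all 4 libraries. Cdx2, a homeobox gene that activates posterior Hox genes and trophoblast genes, had 1, 2, 3 and 0, and the other upstream genes had a peak in at most 1 library. Of the 5 related homeobox genes, Evx2, the neighbour of Hoxd13, had 4, 4, 4 and 1 and Gsx1 had 0, 1, 1 and 1. In the METTL3 lists the list's only peak was 1 at Pknox1, in the second Mettl14 Control library.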

How the data were processed

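The data were 8 peak lists, 1 per library, of METTL14 and METTL3 CUT&RUN in mouse embryonic stem cells, in mm10 coordinates. Bowtie2 2.4.1, Trimmomatic 0.38, HOMER, SAMtools and CASAVA are listed, without role or order, per the submitters' processing notes. What peak threshold and background library were used is not given in the sources used here. The deposited score was 1 for every peak, so peaks were counted, not weighed. A list shows only where signal passed the authors' threshold, and its length depends on an unknown depth.

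Groups and replicate numbers came from the sample titles. Each peak went to its nearest protein-coding gene (0 bp if they overlap, ties to the shortest gene) within 2 kb. Genes and promoters came from RefSeq tables for GRCm38.p6. Densities are peaks per 10 kb of sequence for which a gene is the nearest. Regions are peaks of several libraries merged where they share at least 1 bp. Over all 21896 genes, control and CKO counts were compared by whether both libraries of a group lay above both of the other. A two-sided exact permutation test is given for the Hox genes only. The 38 genes, their classes and the partner list were chosen with earlier results of these data known. All 38 were named, with the partners that had a peak in at least 2 METTL14 libraries, apart from 1 that is not reported here. The counts at METTL3 list length, peaks per gene length, the share of genes with at least 2 peaks, joining at 500 bp, and the splits without a cluster or paralogue group 3 were added after seeing the data. Alternatives were windows of 1 and 5 kb, other assignments, equal list length, other overlap rules and leaving out libraries. Python 3.11.15, pandas 2.3.3, NumPy 2.4.6 and SciPy 1.17.1 were used. Simulated peaks, all placed inside genes, tested the search for overlapping genes and, on planted counts, the call of non-overlapping counts. They did not test the choice of the nearest gene, the 2 kb window or the rule for ties.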

Additional observations from a re-analysis of the deposited data

How the results depend on the processing

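Of 71 values recomputed under alternatives, 57 moved by less than the spread between libraries or, for counts, by less than 1.5 times. Another 13 moved further, and 1 moved further with a change of sign. The 57 include the difference in marked genes without control 2, which changed sign within that spread. Some of the 57 could not have moved further. With 1 library left out, the log2 difference in Hox peaks, the difference in marked genes and the posterior-minus-anterior differences cannot move beyond that spread. The replicate block returns the same mean differences, and a METTL3 count of 0 stays 0 without a library. Those values carry no information on robustness. The number of Hox genes whose control and CKO counts did not overlap was 2. It became 4 with a 5 kb window, 1 when peaks were counted for every gene within 2 kb, and 5 with the replicate number as a replicate block. The share over all genes under these settings is not given here, so these counts are not read as particular to Hox genes. With 1 library left out the number also moved, but a lone library makes non-overlap easier for any gene. The share of replicated control regions overlapped in CKO, 57.7%, ran from 25% to 73.1% with 1 library left out: a lone control library contributes all of its peaks, so the share was 25% without control 1 and 34% without control 2. Without the paralogue group 3 genes, an alternative chosen after seeing the data, the posterior-minus-anterior difference in the share of marked genes was 23.4 percentage points in place of 12.1. Leaving out each cluster, also added later, gave −1.42 points without the Hoxd genes and 39.3 without the Hoxb genes, and a density difference, 0.733 per 10 kb with all clusters, of 0.0357 without Hoxd and 1.31 without Hoxb.

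The log2 difference in Hox peaks, −0.24, was −0.46 without control 1 and −0.01 without control 2, and −0.44 and −0.03 without CKO 1 and CKO 2. The pairs of the replicate block stood at 0.19 and −0.66, and their mean is −0.24 by construction. The difference in marked genes was −1, by construction also the mean of its pairs at 2 and −4. It ran from −3 to 1 with 1 library left out, turning positive without control 2. The labels give no shared culture or day, so the pairs share only a number. METTL3 lists held 0 Hox peaks under each alternative run. With 2 libraries a group and no depth or peak height, small differences between control and CKO could not be detected.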
